A study of Mus musculus with 163 samples.

Results

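Solute carriers are the membrane proteins, named Slc plus a family number and a member letter, that move ions, sugars, amino acids, vitamins and metals across cell membranes without direct use of ATP. The 148 genes described here are those of the Slc families, apart from the mitochondrial Slc25a carriers and the Slco organic anion carriers, that were expressed in single mouse oocytes. They were chosen by measured level: reads were summed over the oocytes of each group, and a gene entered when its pooled counts per 1000000 reads (CPM) reached 5 in at least 1 of 7 groups. Of 21950 genes in the table, 357 had a symbol of Slc and a digit, 314 of these were outside Slc25a and Slco, and 148 passed. The other 166 were not described further. Of them, 58 reached between 1 and 5 CPM and 108 stayed under 1 CPM in every group, 6 of these without any read. At the threshold, Slc26a10 at 4.8 CPM and Slc5a4b at 4.92 CPM stayed outside, whereas Slc37a2 at 5.2 CPM and Slc36a1 at 5.35 CPM were inside. Of the 148, 97 reached 5 CPM in all 7 groups and 14 in 1 group only, and those 14 had to differ between groups by the way they were chosen. By annotation 147 of the genes are protein coding, and Slc10a4l is a transcribed pseudogene.

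Each library was 1 oocyte, sequenced by Smart-seq2, a protocol that amplifies full-length polyadenylated transcripts of 1 cell. Growing oocytes (GROs) and fully grown oocytes (FGOs) came from the sources listed here. iPSC-derived oocytes (23 GROs, 24 FGOs) began as BVSC-iPSC, 1 female induced pluripotent stem cell line with Blimp1-Venus and Stella-ECFP reporters. These cells were turned into primordial germ cell-like cells (in vitro PGC differentiation, IVP), mixed with somatic cells of female gonads of Swiss Webster embryos at E12.5 from which germ cells had been depleted, and cultured to GROs (in vitro oocyte differentiation, IVD) and then, as follicles, to FGOs (in vitro growth, IVG). Some germ cells of the host gonads can remain after the depletion. Gonad-derived oocytes (24 GROs, 24 FGOs) came from dissociated E12.5 gonads with their own germ cells and went through IVD and IVG. The 6 dpp FGOs (24 oocytes) came from follicles of mice 6 days after birth that went through IVG only. In vivo GROs (24) and in vivo FGOs (20) grew in ovaries. The labels used here give no strain or genotype of the donors of gonad-derived oocytes, in vivo oocytes and 6 dpp follicles. They also give no age for in vivo oocytes. Donor background, or the cell line for iPSC-derived oocytes, therefore cannot be told apart from source or culture step.

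Comparisons of FGOs with GROs describe growth within 1 source. For IVP, iPSC-derived oocytes were set over gonad-derived ones of the same stage (IVP@GRO, IVP@FGO). For IVD, gonad-derived GROs were set over those grown in vivo (IVD@GRO), and gonad-derived FGOs over 6 dpp FGOs (IVD@FGO). For IVG, 6 dpp FGOs were set over FGOs grown in vivo (IVG@FGO). The labels name no animal or culture behind an oocyte, so each group counted as 1 sample, no comparison had a replicate check and no test was made. For a log2 ratio, 0.5 was added to the pooled CPM of both groups and the first was divided by the other, which understates the difference of genes of low level. Genes past a ratio of 1 in either direction, that is 2-fold, are called higher or lower. Since levels chose the genes, all such counts are descriptions. They are set beside the same counts over the 9835 genes of the whole table that reached 5 CPM in at least 1 group.

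In mammalian ovaries the oocyte and its granulosa cells are coupled by gap junctions and exchange metabolites. Granulosa cells are known to hand pyruvate and several amino acids to the oocyte, which takes up little glucose by itself. The oocyte is also known to import glycine to set its volume, to run bicarbonate and proton exchangers that hold its pH, and to take up zinc as it matures. Within the cell, carriers of the endoplasmic reticulum (ER) and Golgi bring in nucleotide sugars for glycosylation, which the zona pellucida proteins need.

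Totals per oocyte ran from 2.17 to 13.7 M reads (M, 1000000), and summed totals per group from 145 to 166 M reads. In a single group 3 reads equalled 0.0181 to 0.0207 CPM. All 12 oocyte markers of a fixed list, Gdf9, Bmp15 and the zona genes among them, reached 5 CPM in every group. Of 15 granulosa cell markers 13 matched a gene, and their summed level was 50.3 to 54.7 CPM in the 3 GRO groups. It was 90.5 CPM in iPSC-derived, 119 CPM in gonad-derived, 146 CPM in in vivo and 202 CPM in 6 dpp FGOs, where 6 dpp FGO 12 held 1645 CPM. Cyp19a1 alone made up 61.9, 77.2, 64.1 and 74.7 CPM of these FGO sums, in that order. In each group 3 to 6 of the 13 markers reached 5 CPM. The markers did not move alike. In vivo, Nr5a2 was 27.3 CPM in GROs and 25.9 CPM in FGOs, and Fshr was 3.23 and 2.55 CPM. Pooled by group, theca and blood markers summed to at most 15.5 and 0.0897 CPM, and the highest theca sum of 1 oocyte was 173 CPM, also in 6 dpp FGO 12. By their whole profile, in vivo FGO 7 was closest to gonad-derived GROs (r = 0.95 across genes, against 0.912 with its own group), and gonad-derived FGO 19 correlated least with its group (r = 0.822). Gonad-derived FGOs 3, 9, 11, 12, 14, 19 and 21 were closest to 6 dpp FGOs, for oocyte 14 at r = 0.972 against 0.968 with its own group. Several results are also given without in vivo FGO 7, gonad-derived FGO 19 or 6 dpp FGO 12. CPM are shares of a library, so a lower level of a gene and more RNA of other genes cannot be told apart.

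The 148 genes took up a near-constant share of the transcriptome. Their summed level was 10287 CPM in in vivo GROs, 9908 CPM in gonad-derived GROs and 10025 CPM in iPSC-derived GROs. In FGOs it was 11320 CPM in vivo, 11692 CPM at 6 dpp, 12000 CPM in gonad-derived and 10434 CPM in iPSC-derived oocytes. Single oocytes of every group overlapped those of every other group in this sum, with lowest values of 8718 to 10816 CPM and highest values of 10928 to 13374 CPM. The share of all reads was 0.991% to 1.2%.

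By substrate, 13 classes were formed from the family and, for some members known to differ, from the symbol. The ER and Golgi class took Slc33a1 and all Slc35 members by family name alone, so not every member need work there. Sugar carriers (13 genes) gave 22.8% to 27.1% of the summed level and metal carriers (19 genes) 19.7% to 23.2%. Amino acid carriers (23 genes) followed with 14.7% to 17.1%, carriers of the ER and Golgi (16 genes) with 9.81% to 11.7%, carriers of sodium, protons, potassium, calcium, chloride and bicarbonate (24 genes) with 8.96% to 10.5%, and vitamin, choline and heme carriers (10 genes) with 5.89% to 7.25%. Sugar carriers came first in 6 of the 7 groups, and metal carriers in iPSC-derived GROs with 2323 against 2303 CPM. The remaining 7 classes each gave at most 3.01%.

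**Figure D1:**
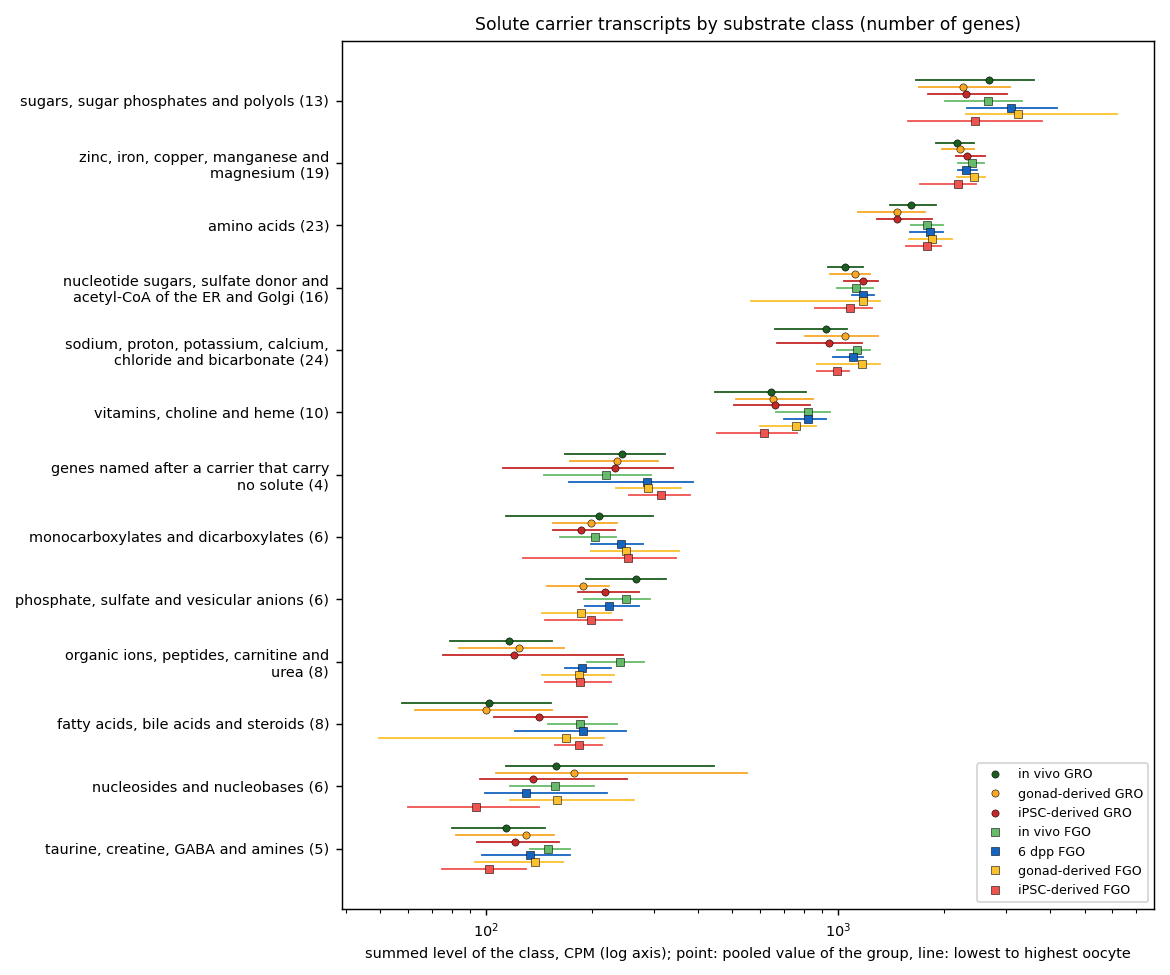
Summed level of each substrate class in CPM on a log axis, with a point for the pooled value of each of the 7 groups and a line from its lowest to its highest oocyte. Sugar and metal carriers gave the highest sums in every group, and organic ion and peptide carriers stood at 116.5 CPM in in vivo GROs and 239.5 CPM in in vivo FGOs.

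A few genes held a large part of this level. Slc45a3, a member of the Slc45 family of sugar carriers known from the prostate, made up 78.8% to 91.7% of the sugar class. Its gene lies at chr1:131962915-131982972 (GRCm38.p6) and is protein coding. Pooled values were 2387, 1884 and 1815 CPM in in vivo, gonad-derived and iPSC-derived GROs and 2317, 2834, 2949 and 2143 CPM in in vivo, 6 dpp, gonad-derived and iPSC-derived FGOs. Every one of the 163 oocytes held at least 1317 CPM, and all groups overlapped. Per kb of exon of the isoform counted for each gene, Slc45a3 averaged 657 CPM over the groups. Levels per kb depend on which isoform was counted, so the order of genes by them is approximate.

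Next in level per length came Slc30a3 at 373 CPM per kb, a zinc carrier known for loading synaptic vesicles (chr5:31086106-31108244). It ranged from 728 CPM pooled in 6 dpp FGOs to 1017 CPM in iPSC-derived GROs. The glycine carrier Slc6a9, which the oocyte uses to control its volume, averaged 125 CPM per kb, and its pooled level lay between 390 CPM in gonad-derived GROs and 615 CPM in iPSC-derived FGOs. Both known routes of zinc into the oocyte, Slc39a6 and Slc39a10, averaged 109 and 77.4 CPM per kb. Slc3a2, the heavy chain that several amino acid exchangers need to reach the membrane, averaged 99.9 CPM per kb and lay at 261 to 358 CPM pooled. Slc44a2, a choline carrier-like protein, averaged 95.8 CPM per kb, and the copper carrier family member Slc31a2 averaged 86.6 CPM per kb.

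In the remaining classes the gene of highest level per length was Slc35b1 for the ER and Golgi (64.5 CPM per kb), the glucose carrier Slc2a1 being the second sugar carrier (60.5 CPM per kb). Slc26a6, an anion exchanger, led the ion carriers with 47.0 CPM per kb, and Slc4a8, which exchanges sodium and bicarbonate for chloride, followed with 25.7 CPM per kb. Slc16a13 led the monocarboxylate carriers (35.3 CPM per kb) ahead of the lactate and pyruvate carrier Slc16a1 (18.4 CPM per kb). Slc10a6, which takes up steroid sulfates, led the lipid class (30.3 CPM per kb), the peptide carrier Slc15a4 the organic ion class (37.6 CPM per kb), the sulfate carrier Slc26a2 the anion class (25.6 CPM per kb) and the taurine carrier Slc6a6 the amine class (24.5 CPM per kb). Only 0.897 kb of Slc15a4 was counted. Its mean pooled level of 33.7 CPM was below those of Slc15a5 (37.6 CPM) and Slc22a23 (34.0 CPM). Slc4a1ap and Slc7a6os, at 45.5 and 30.6 CPM per kb, carry their names from a neighbouring or partner gene and transport nothing themselves.

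**Figure D2:**
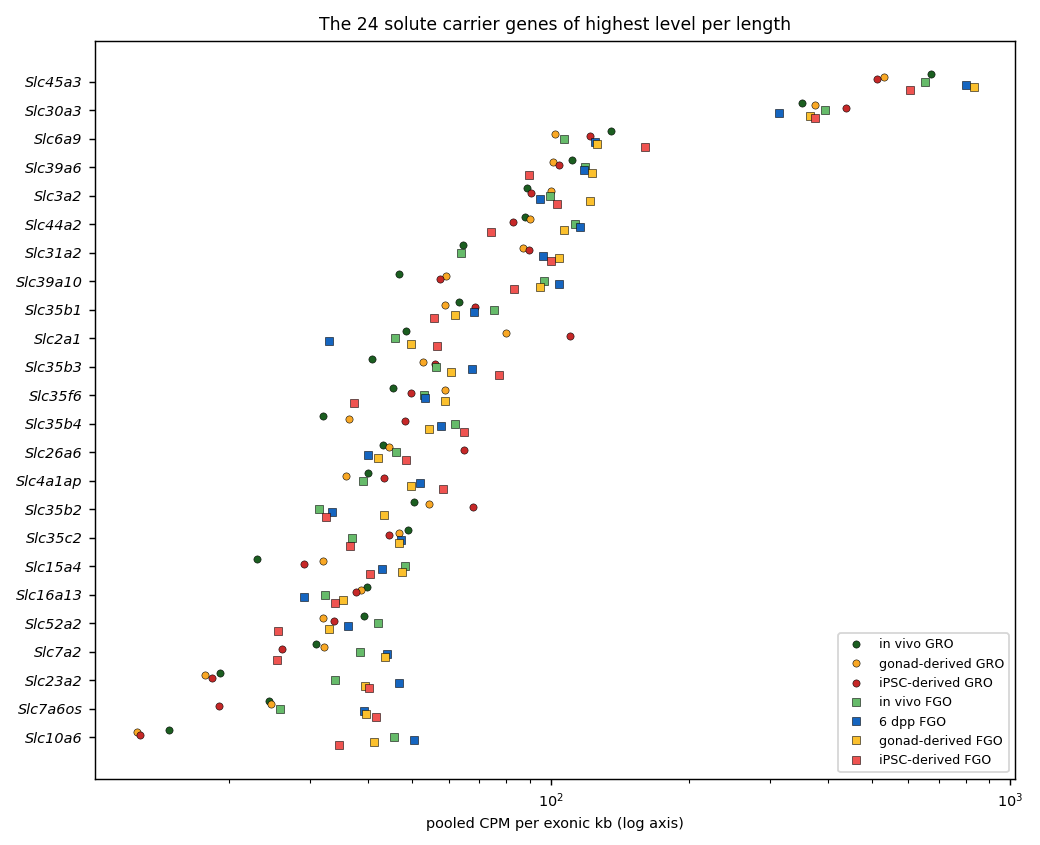
The 24 members of highest level per exonic length, in CPM per kb on a log axis, with 1 point for each of the 7 groups. Slc45a3 stands at 512 to 831 CPM per kb and Slc30a3 between 314 and 438 CPM per kb.

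A list of 34 carriers with a known part in oocytes or their exchange with cumulus cells was set beside the table. Of these, 31 were in the table, 20 were members and 11 stayed under 5 CPM. Below the level were the glycine carrier Slc6a5 (at most 0.42 CPM), the creatine carrier Slc6a8 (1.87), the neutral amino acid carriers Slc1a5 (1.0), Slc1a4 (2.11), Slc38a2 (0.784) and Slc38a3 (0.579), the glucose carrier Slc2a3 (0.421), the monocarboxylate carriers Slc16a3 (2.19) and Slc16a7 (3.16) and the iron exporter Slc40a1 (0.282). The sodium-calcium exchanger Slc8a1 was listed at 0 reads in all 7 groups. These low values cover the counted isoform of each gene only. The other 3 genes of the list were not analysed here.

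Of the 148 carriers, 70 (47.3%) kept within 2-fold in all 8 comparisons, beside 62.4% of expressed genes. In the 5 comparisons of culture steps 110 (74.3%) did, beside 84.7% of expressed genes. The 4 smallest log2 ranges between the highest and lowest group belonged to carriers of the ER and Golgi, with 0.36 for the CMP-sialic acid carrier Slc35a1, 0.39 for the GDP-fucose carrier Slc35c1, 0.41 for Slc35c2 and 0.43 for Slc35b1, although the same class held Slc35f5 at 2.11 and Slc35e2 at 2.41. Slc35a1 lay at 62.7 to 80.5 CPM in the pooled groups. Members of many roles were among the 70, such as Slc45a3, Slc30a3, Slc39a6, Slc6a9, Slc3a2, Slc2a1, Slc44a2 and the anion exchanger Slc4a2.

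During growth in vivo 29 of the 148 genes were higher in FGOs than in GROs and 26 were lower, where 9.64% and 13.9% of the 9835 expressed genes were. The median log2 ratio was 0.11 for the carriers and -0.11 for all expressed genes. In gonad-derived oocytes 17 were higher and 15 lower, beside 5.57% and 10.6% of expressed genes, with medians of 0.07 and -0.04. In iPSC-derived oocytes 17 were higher and 27 lower, beside 6.83% and 15.4%, with medians of -0.19 and -0.08. As shares of the 148 genes, the higher ones were 19.6%, 11.5% and 11.5% and the lower ones 17.6%, 10.1% and 18.2%. Without in vivo FGO 7, a choice made after the data were seen, 29 were higher and 28 lower in vivo. Without gonad-derived FGO 19, chosen likewise, 16 were higher and 15 lower in gonad-derived oocytes, with Slc24a5 at 0.96.

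The 3 growth comparisons share no library. Past 2-fold in all 3 were 7 genes higher in FGOs (Slc6a15, Slc9b1, Slc5a12, Slc4a10, Slc10a6, Slc15a5 and Slc47a2) and 12 genes lower (Slc39a1, Slc45a4, Slc27a4, Slc27a1, Slc30a6, Slc30a9, Slc39a11, Slc19a2, Slc2a8, Slc38a10, Slc35f5 and Slc7a6). The 7 were 19.4% of the 36 genes higher in at least 1 source, and the 12 were 36.4% of the 33 genes lower in at least 1. As shares of the 148, the 7 were 4.73% and the 12 were 8.11%, beside 3.21% and 6.96% of expressed genes higher or lower in all 3. Leaving out single oocytes took Slc7a6 in vivo (in vivo FGO 3, for example) and Slc2a8 in gonad-derived oocytes (gonad-derived FGO 20) to -0.98, so these 2 of the 12 do not hold with every oocyte left out.

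Slc6a15, which carries branched-chain and other neutral amino acids, had the highest ratio in vivo. In vivo GROs held 0.0 to 21.1 CPM of Slc6a15 with a median of 2.06, and in vivo FGOs 12.9 to 218 CPM with a median of 147. Pooled, Slc6a15 was 3.32 against 136 CPM, 35.9-fold higher in FGOs (log2 ratio 5.16), and only in vivo FGO 7, at 12.9 CPM, lay within the range of GROs. The gene lies at chr10:103367808-103419379. Cultured GROs already held more Slc6a15, with medians of 19.4 CPM in gonad-derived and 8.02 CPM in iPSC-derived GROs and highest oocytes at 88.6 and 84.9 CPM. FGO medians were 120 CPM in gonad-derived and 91.5 CPM in iPSC-derived oocytes, at log2 ratios of 2.59 and 2.9, and here the groups overlapped.

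Slc9b1, a sodium-proton exchanger known from sperm (chr3:135347993-135397827), was likewise higher in FGOs than in GROs of the same source. Its medians were 2.98 CPM (0.0 to 10.4) in in vivo GROs and 89.9 CPM (6.75 to 146) in in vivo FGOs, at a log2 ratio of 4.43. In vivo FGO 7 was the FGO that reached into the range of GROs. In gonad-derived oocytes the medians of Slc9b1 were 11.4 and 50.4 CPM and in iPSC-derived oocytes 14.0 and 71.2 CPM, at log2 ratios of 1.86 and 1.99.

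Slc2a12, a glucose carrier, differed by source. In in vivo GROs its median was 1.58 CPM (0.0 to 32.2), and in in vivo FGOs 72.3 CPM (30.2 to 111), at a log2 ratio of 3.69. In gonad-derived oocytes Slc2a12 was 16.2 CPM pooled in GROs and 19.5 CPM in FGOs, and in iPSC-derived oocytes 23.0 and 29.8 CPM, at ratios of 0.26 and 0.37. Those cultured groups overlapped almost fully, and the growth difference in vivo was 12.9-fold. The urate carrier Slc2a9 had log2 ratios of 3.67 in vivo, 2.05 in gonad-derived and 0.58 in iPSC-derived oocytes, and the creatine carrier Slc16a12 had 3.5, 0.62 and 1.39. Whether these ratios differ between sources was not tested.

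Slc39a1, a plasma membrane zinc importer (chr3:90248190-90253613), had the lowest ratio in gonad-derived and iPSC-derived growth. It lay at 27.5 to 61.3 CPM in in vivo GROs (median 42.3), 19.8 to 49.8 CPM in gonad-derived GROs (median 34.8) and 26.3 to 61.5 CPM in iPSC-derived GROs (median 38.9). FGOs held 0.0 to 23.8 CPM in vivo (median 2.81), 0.0 to 8.18 CPM in gonad-derived (median 1.08) and 0.141 to 3.02 CPM in iPSC-derived oocytes (median 0.812). No FGO reached the lowest GRO of its source. Log2 ratios of Slc39a1 were -2.64, -3.65 and -4.59, and the highest in vivo FGO was oocyte 7, without which the first ratio was -2.84.

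Slc45a4, of the same family as Slc45a3, had the lowest ratio in vivo, with a median of 8.34 CPM in in vivo GROs (3.98 to 47.4) and 0.494 CPM in in vivo FGOs (0.0 to 5.11), at a log2 ratio of -3.16. In gonad-derived and iPSC-derived GROs its medians were 3.22 and 4.14 CPM and in their FGOs 0.0 and 0.147 CPM, at ratios of -2.63 and -2.71. Slc27a4, which activates and moves long-chain fatty acids, was 8.68, 4.0 and 5.78 CPM pooled in in vivo, gonad-derived and iPSC-derived GROs and 1.18, 0.382 and 0.325 CPM in the FGOs, at ratios of -2.45 (-2.59 without in vivo FGO 7), -2.35 and -2.93. Groups of gonad-derived and of iPSC-derived oocytes did not overlap for Slc27a4. Its relative Slc27a1 was lower by ratios of -2.05, -1.42 and -2.46. Slc27a6, of the same family, went the other way and had the highest ratio of iPSC-derived growth. It was 0.134 CPM pooled in iPSC-derived GROs and 6.41 CPM in FGOs, a ratio of 3.45 without overlap. In gonad-derived oocytes Slc27a6 was 0.0318 and 1.91 CPM, a ratio of 2.18, and in vivo 0.13 and 0.545 CPM.

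Oocytes of both stages did not overlap at all for 10 genes in vivo, 4 in gonad-derived and 16 in iPSC-derived oocytes, beside 4.43%, 5.2% and 10.4% of expressed genes. In vivo these were Slc4a10, Slc15a5, Slc28a2b, Slc34a1, Slc18a2 and Slc10a4l higher in FGOs and Slc39a1, Slc30a9, Slc35e2 and Slc17a5 lower. Without in vivo FGO 7 the in vivo number was 15, with Slc6a15, Slc9b1, Slc2a12, Slc2a9 and Slc26a9 added, and the share over expressed genes was 8.54%. Slc39a1 was the gene common to all 3 sources.

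**Figure D3:**
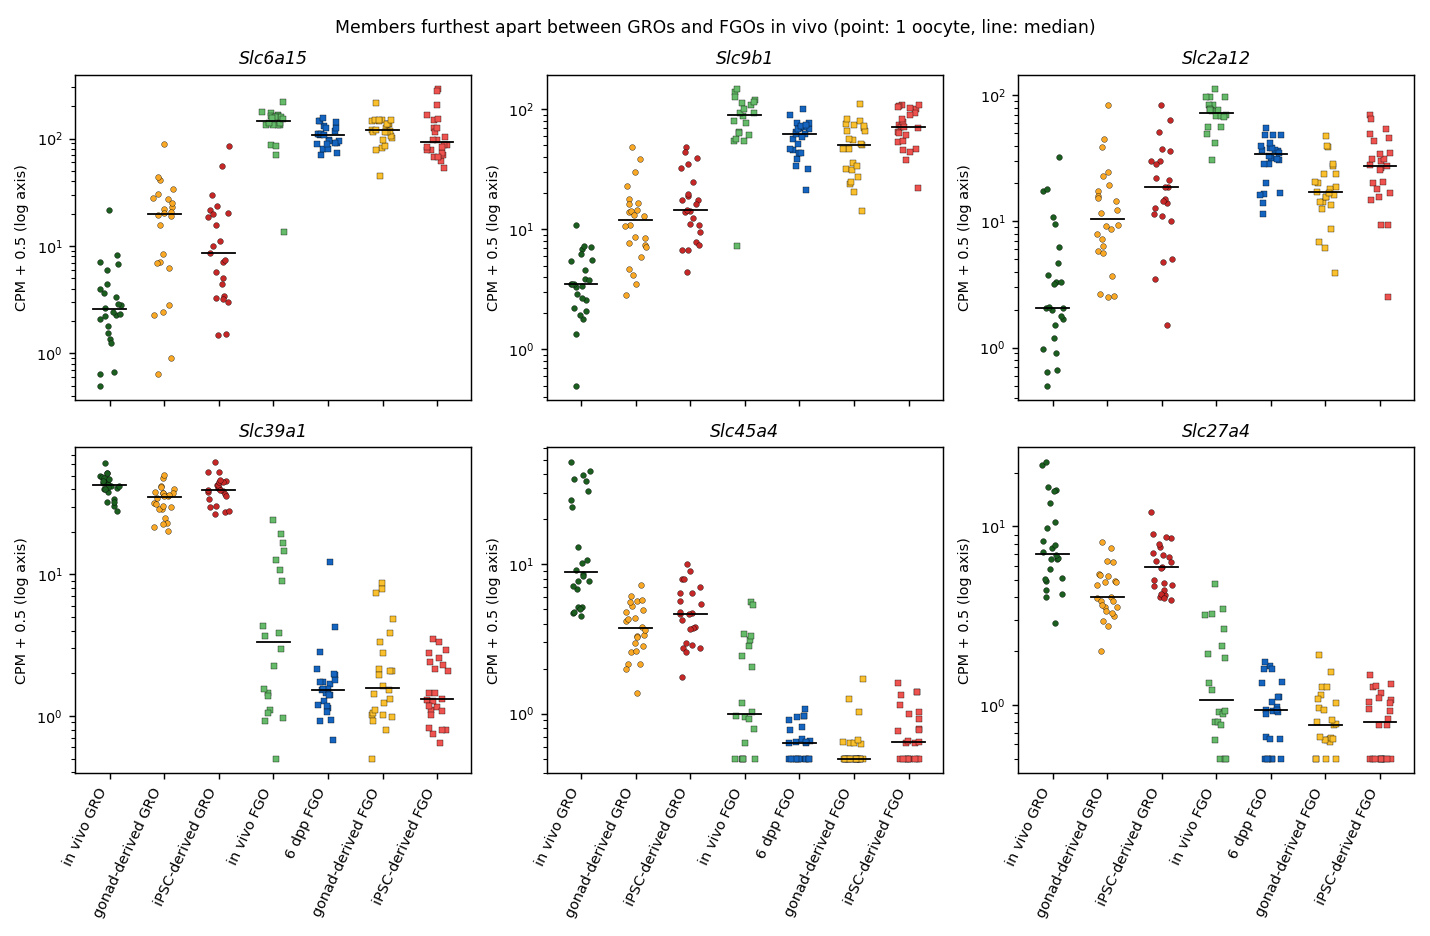
Level in every oocyte (CPM, log axis with 0.5 added) of 3 members higher and 3 members lower in FGOs, by group, with the median as a bar. Slc39a1 in all 3 GRO groups stands at 19.8 CPM or more, and for Slc2a12 19 of 20 in vivo FGOs lie above all in vivo GROs.

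The counts by class are to be read beside the shares of expressed genes, 9.64% higher and 13.9% lower in vivo, 5.57% and 10.6% in gonad-derived and 6.83% and 15.4% in iPSC-derived oocytes. No class was tested. Organic ion, peptide, carnitine and urea carriers had 5 of 8 genes higher in FGOs in vivo and 0 lower, of which Slc22a22 was at 0.97 without in vivo FGO 13, and their sum was 116.5 CPM in GROs and 239.5 CPM in FGOs. In gonad-derived oocytes 2 of 8 were higher (sums of 124.4 and 183.7 CPM) and in iPSC-derived oocytes 3 of 8 (sums of 119.9 and 184.4 CPM). Slc15a5, a member of the peptide carrier family, had the highest growth ratio of this class in vivo: its median was 8.56 CPM (3.42 to 20.5) in in vivo GROs and 85.2 CPM (41.4 to 112) in in vivo FGOs, with no overlap. In gonad-derived oocytes its pooled level was 24.4 and 52.4 CPM, and in iPSC-derived oocytes 11.6 and 31.1 CPM. The peptide carriers Slc15a2 and Slc15a4 both had ratios of 1.05 in vivo, and the organic cation exporter Slc47a2 had 2.22, 1.62 and 1.33.

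Metal carriers had 1 of 19 higher and 6 lower in vivo, 0 and 4 in gonad-derived and 0 and 5 in iPSC-derived oocytes. Among the 6 was Slc39a3 at -1.03, and at -0.98 without in vivo GRO 10. The sum of the class was 2173 CPM in GROs and 2403 CPM in FGOs in vivo, 2218 and 2429 CPM in gonad-derived oocytes, and 2323 and 2189 CPM in iPSC-derived oocytes. Lower in all 3 sources were Slc39a1, Slc39a11, Slc30a9 and Slc30a6, a Golgi zinc carrier that works as a pair with Slc30a5. Slc30a6 was 30.0, 31.8 and 33.5 CPM in the 3 GRO groups and 12.8, 6.04 and 4.54 CPM in their FGOs, whereas Slc30a5 stayed between 66.9 and 98.1 CPM in all groups. The 1 higher gene in vivo was Slc39a10, at a median of 249 CPM (92.6 to 399) in GROs and 527 CPM (393 to 681) in FGOs, with overlap, a log2 ratio of 1.05 with 0.68 and 0.53 in the cultured sources. The copper importer Slc31a1 had ratios from -0.09 to 0.09.

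Carriers of sodium, protons, chloride and bicarbonate had 5 of 24 higher and 5 lower in vivo, 5 and 1 in gonad-derived and 3 and 4 in iPSC-derived oocytes. Among these last 4 was Slc24a4 at -1.33, but it was at 0.15 without iPSC-derived GRO 8. Higher in vivo were Slc9b1, the proton exchanger Slc9a4, the bicarbonate carrier Slc4a10, Slc24a4 and the chloride carrier Slc26a9. Among the lower were the sodium-potassium-chloride cotransporter Slc12a2, the chloride exporter Slc12a5, Slc24a3 (-1.04, and -0.98 without in vivo GRO 24) and Slc9a8. Slc12a2 lay at 18.4 to 111 CPM in in vivo GROs (median 31.2) and 7.98 to 35.4 CPM in in vivo FGOs (median 15.1), with overlap, at a log2 ratio of -1.47. The bicarbonate carriers Slc4a7 and Slc4a8 and the exchanger Slc4a2 kept within 2-fold in all 3 sources.

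Amino acid carriers had 2 of 23 higher and 4 lower in vivo, 1 and 2 in gonad-derived and 2 and 5 in iPSC-derived oocytes. Beside Slc6a15, the glutamate carrier Slc1a1 was higher in vivo, with a ratio of 1.32. Slc7a11, which imports cystine for glutathione, had ratios of 0.76, 0.72 and 1.09, with medians of 158 and 322 CPM in in vivo GROs and FGOs. Slc38a1, a glutamine carrier, was lower in vivo (22.6 and 4.28 CPM pooled) and in iPSC-derived oocytes (15.4 and 3.45 CPM), whereas gonad-derived GROs and FGOs held 3.7 and 5.3 CPM.

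Monocarboxylate carriers had 2 of 6 higher in each source and 0 lower. The sodium-coupled carrier Slc5a12 was higher in all 3, with pooled values of 2.76 and 22.7 CPM in vivo, 4.11 and 17.4 CPM in gonad-derived and 5.92 and 19.6 CPM in iPSC-derived oocytes. The pyruvate and lactate carrier Slc16a1 was 76.1 CPM in in vivo GROs and 76.4 CPM in in vivo FGOs, a ratio of 0.01, but 45.3 and 95.3 CPM in gonad-derived and 46.1 and 122 CPM in iPSC-derived oocytes, ratios of 1.07 and 1.39. Among vitamin carriers the ascorbate carrier Slc23a2 had ratios of 0.82, 1.15 and 1.12 and the thiamine carrier Slc19a2 -1.4, -1.82 and -1.36. The folate carrier Slc19a1 and the riboflavin carrier Slc52a2 kept within 2-fold in every comparison.

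**Figure D4:**
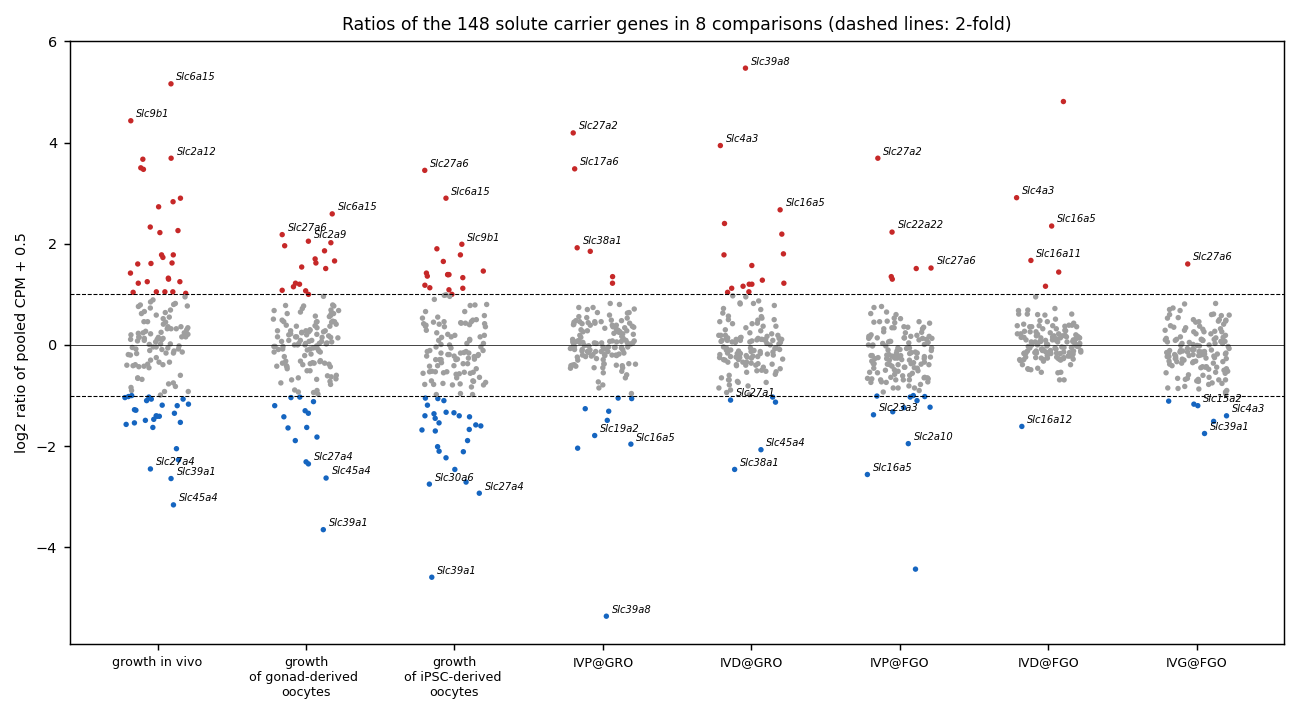
Log2 ratios of the 148 members in the 8 comparisons, 1 point per member, with dashed lines at 2-fold and the genes named by the size rule labelled. The 3 growth comparisons hold 32 to 55 members past 2-fold and the 5 culture comparisons 7 to 21.

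Fewer carriers differed between sources at one stage. For IVP, iPSC-derived against gonad-derived oocytes, 6 were higher and 9 lower among GROs (1.53% and 1.87% of expressed genes), and 6 were higher and 11 lower among FGOs (2.01% and 3.89%). For IVD, 16 were higher and 5 lower among GROs (4.35% and 2.59%), and 6 were higher and 1 lower among FGOs (1.53% and 0.519%). From medians over oocytes in place of pooled values, the split was 3 higher and 3 lower at IVD@FGO, 6 higher and 7 lower at IVP@FGO, 12 higher and 3 lower at IVD@GRO and 2 higher and 7 lower at IVG@FGO. For IVG, 1 was higher and 6 lower (1.1% and 2.74%). Median ratios of the carriers lay between -0.23 at IVP@FGO and 0.03 at IVP@GRO, and those of expressed genes between -0.07 and 0.02.

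The IVP comparisons at both stages share no library. Past 2-fold at both were 3 genes higher in iPSC-derived oocytes (Slc27a2, Slc17a6 and Slc22a22), of the 6 at each stage, and 5 lower (Slc39a8, Slc16a5, Slc2a10, Slc23a3 and Slc19a2), which were 55.6% of the 9 and 45.5% of the 11. For IVD, whose stages likewise share no library, 4 genes were higher at both (Slc39a8, Slc4a3, Slc16a5 and Slc16a11), 25.0% of the 16 and 66.7% of the 6, and 0 were lower at both. Over expressed genes 0.783% were higher and 1.03% lower at both stages of IVP, and 0.986% and 0.132% at both stages of IVD. IVP and IVD at one stage share the gonad-derived oocytes, so a gene high in that group is past 2-fold in both, with opposite signs. Slc39a8 and Slc16a5 were such genes at both stages, and Slc19a2, Slc26a5, Slc15a5 and Slc10a4l at the GRO stage, where Slc38a1 was low in gonad-derived oocytes. Without iPSC-derived GRO 20, Slc15a5 and Slc10a4l were at -0.99 at IVP@GRO.

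Slc27a2, a very long-chain fatty acid enzyme and carrier (chr2:126553024-126588243), marked the iPSC-derived groups. In iPSC-derived GROs it lay at 2.04 to 25.9 CPM (median 14.9) and in iPSC-derived FGOs at 4.78 to 15.6 CPM (median 10.0). In the other 5 groups no oocyte was above 3.25 CPM, and medians were 0.068 to 0.508 CPM. iPSC-derived and gonad-derived oocytes did not overlap for Slc27a2 at either stage, and log2 ratios were 4.19 at IVP@GRO and 3.69 at IVP@FGO. Groups did not overlap for 2 members at IVP@GRO and 1 at IVP@FGO, beside 0.458% and 0.6% of expressed genes. Without gonad-derived FGO 19 there were 2 at IVP@FGO, with Slc4a8 added, beside 0.844%.

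The other non-overlapping gene was Slc17a6, which fills synaptic vesicles with glutamate (chr7:51621830-51671126). It lay at 2.95 to 16.0 CPM (median 7.04) in iPSC-derived GROs and at 0.0 to 1.11 CPM (median 0.0) in gonad-derived GROs, at a log2 ratio of 3.48. In iPSC-derived FGOs Slc17a6 ranged from 1.12 to 9.64 CPM (median 3.79), and in gonad-derived FGOs from 0.0 to 10.9 CPM (median 0.0635), so that the groups overlapped and the highest gonad-derived FGO lay above all iPSC-derived ones. Slc22a22, an organic anion carrier with close copies in the genome, had ratios of 1.22 and 2.23 and a median of 8.4 CPM in iPSC-derived FGOs against 0.486 CPM in gonad-derived FGOs. At IVP@FGO Slc27a6 had a ratio of 1.52, with medians of 5.34 and 1.25 CPM and with overlap.

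Lower in iPSC-derived oocytes at both stages were Slc2a10, a glucose carrier family member, with medians of 6.58 against 16.9 CPM in GROs and 4.26 against 18.3 CPM in FGOs, and Slc23a3, with 18.6 against 56.0 and 24.5 against 64.3 CPM. Ranges overlapped for both genes at both stages. In vivo and 6 dpp oocytes were near the gonad-derived ones for Slc2a10, with medians of 14.6 CPM in in vivo GROs and 24.0 and 21.8 CPM in in vivo and 6 dpp FGOs. Slc24a4 had opposite signs at the stages, 1.85 at IVP@GRO and -1.02 at IVP@FGO, but the former was 0.38 without iPSC-derived GRO 8, which held 112 CPM, and the latter -0.74 without gonad-derived FGO 24.

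Promoters of Slc39a8, Slc4a3, Slc27a2 and Slc17a6, genes of large ratios at IVD or IVP, are printed so that they can be compared. Sequences are RefSeq windows of GRCm38.p6, 250 bases before to 50 after an annotated start, with each CG dinucleotide in capitals, a motif that reads the same on both strands. For Slc39a8 the table holds a pair of windows on the plus strand, chr3:135825029-135825328 with 12 CG and chr3:135825407-135825706 with 9 CG. The Slc4a3 window is chr1:75546212-75546511 on the plus strand with 28 CG, and the Slc27a2 window chr2:126552774-126553073 on the plus strand with 25 CG. The Slc17a6 windows, also on the plus strand, are chr7:51621580-51621879 with 8 CG and chr7:51624387-51624686 with 3 CG.
Slc39a8 first window: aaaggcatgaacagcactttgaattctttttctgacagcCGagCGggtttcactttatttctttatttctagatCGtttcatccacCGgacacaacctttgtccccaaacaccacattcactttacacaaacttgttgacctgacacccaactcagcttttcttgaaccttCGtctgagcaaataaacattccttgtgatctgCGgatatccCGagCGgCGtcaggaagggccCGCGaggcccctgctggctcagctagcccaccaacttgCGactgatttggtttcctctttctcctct
Slc39a8 second window: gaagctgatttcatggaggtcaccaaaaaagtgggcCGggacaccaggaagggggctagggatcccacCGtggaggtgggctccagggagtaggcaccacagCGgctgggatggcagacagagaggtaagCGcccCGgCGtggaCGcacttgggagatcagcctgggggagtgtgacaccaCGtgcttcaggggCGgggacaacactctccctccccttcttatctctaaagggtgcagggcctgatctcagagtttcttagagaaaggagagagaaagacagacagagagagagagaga
Slc4a3: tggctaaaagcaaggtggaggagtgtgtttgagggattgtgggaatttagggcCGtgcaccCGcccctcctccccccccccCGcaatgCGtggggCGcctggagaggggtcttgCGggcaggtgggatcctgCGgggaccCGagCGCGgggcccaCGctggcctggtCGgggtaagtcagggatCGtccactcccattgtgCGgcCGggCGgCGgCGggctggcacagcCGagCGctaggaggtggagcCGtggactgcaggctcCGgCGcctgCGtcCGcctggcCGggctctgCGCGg
Slc27a2: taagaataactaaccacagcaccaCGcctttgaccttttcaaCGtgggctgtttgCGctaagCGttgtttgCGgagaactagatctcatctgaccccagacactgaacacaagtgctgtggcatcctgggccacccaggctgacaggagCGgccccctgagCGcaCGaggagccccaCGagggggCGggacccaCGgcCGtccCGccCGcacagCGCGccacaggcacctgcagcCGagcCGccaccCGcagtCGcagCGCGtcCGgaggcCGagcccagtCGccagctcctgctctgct
Slc17a6 first window: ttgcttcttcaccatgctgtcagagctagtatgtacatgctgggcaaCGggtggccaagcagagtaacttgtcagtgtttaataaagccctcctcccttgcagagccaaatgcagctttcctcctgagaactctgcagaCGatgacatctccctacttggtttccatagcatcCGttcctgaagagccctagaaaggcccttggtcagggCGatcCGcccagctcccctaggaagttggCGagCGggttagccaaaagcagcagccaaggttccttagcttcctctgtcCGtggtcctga
Slc17a6 second window: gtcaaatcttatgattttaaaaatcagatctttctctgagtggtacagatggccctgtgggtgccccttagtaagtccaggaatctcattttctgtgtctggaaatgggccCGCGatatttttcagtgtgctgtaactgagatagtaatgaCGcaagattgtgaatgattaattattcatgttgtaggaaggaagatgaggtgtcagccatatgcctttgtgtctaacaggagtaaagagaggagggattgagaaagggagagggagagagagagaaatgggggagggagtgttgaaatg
Over all 32851 RefSeq windows the median was 7 CG, and 94.6% of them held at least 1. Windows of the carriers, 163 for 124 genes, had a median of 16, and 99.4% held a CG. The carriers were chosen as expressed, but the 32851 windows cover 27025 genes, expressed here or not. These medians are therefore of unlike sets. As many CG as Slc4a3, or more, were found in 14.2% of all windows, and as many as Slc27a2 in 18.4%, whereas 39.6% and 45.8% had as many as the windows of Slc39a8 and 48.6% and 76.7% as many as those of Slc17a6. No measure of methylation or binding was made here, so the letters are a description.

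Slc39a8, a carrier of zinc, manganese and other metals (chr3:135816882-135888572), was the gene of greatest contrast at IVD and IVP. Gonad-derived GROs held 0.0 to 144 CPM with a median of 15.6, and in vivo GROs 0.0 to 0.952 CPM with a median of 0.0. Pooled values were 25.8 CPM (95% Poisson interval 25.0 to 26.6) against 0.0927 CPM (0.0519 to 0.153), 44.3-fold higher at a log2 ratio of 5.47. iPSC-derived GROs were near the in vivo ones, at 0.14 CPM pooled and 0.756 CPM at most, which gave -5.36 at IVP@GRO.

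Within the gonad-derived groups the oocytes fell into separate sets. In 15 GROs Slc39a8 lay at 6.11 to 144 CPM and in the other 9 at 0.3 CPM or below, with no oocyte between. Among gonad-derived FGOs 3 oocytes (17, 18 and 22) held 322, 18.5 and 261 CPM of Slc39a8, and the other 21 held 0.298 CPM or less. The pooled 17.9 CPM of that group thus rests on 3 oocytes. Of these, oocytes 18 and 17 also had the highest theca marker sums of the group (at most 34.1 CPM, group median 3.61 CPM). Oocyte 18 had its highest granulosa marker sum as well (157 CPM, group median 117 CPM). The part of RNA from other cells in this level of Slc39a8 was not tested. The log2 ratio was 4.81 at IVD@FGO and -4.43 at IVP@FGO, and 3.26 and -2.88 without gonad-derived FGO 17. Slc39a8 was the only one of the 148 genes with such a gap of at least 4-fold and at least 3 oocytes on each side, in any group. Of the expressed genes, 0.214% had one in gonad-derived GROs and 0.173% in gonad-derived FGOs.

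Slc4a3, a chloride-bicarbonate exchanger (chr1:75546044-75559431), was higher past 2-fold at IVD at both stages. It lay at 0.451 to 88.7 CPM (median 30.4) in gonad-derived and at 25.9 to 95.1 CPM (median 48.1) in iPSC-derived GROs, but at 0.147 to 6.53 CPM (median 1.25) in in vivo GROs. Of the 24 gonad-derived GROs, 18 were above all in vivo GROs, and no iPSC-derived GRO overlapped an in vivo one. Among FGOs the medians of Slc4a3 were 3.1 CPM in gonad-derived, 25.8 CPM in iPSC-derived, 0.668 CPM in 6 dpp and 2.97 CPM in in vivo oocytes. Log2 ratios were 3.94 at IVD@GRO, 2.91 at IVD@FGO, 1.3 at IVP@FGO and -1.4 at IVG@FGO, the last being -1.56 without 6 dpp FGO 12.

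Of the monocarboxylate carriers, Slc16a5 was high in gonad-derived oocytes, with medians of 11.4 CPM (1.65 to 54.6) in GROs and 23.3 CPM (2.45 to 55.4) in FGOs. In the other 5 groups its medians were 1.77 to 3.77 CPM. Ratios were 2.67 and 2.35 at IVD and -1.96 and -2.56 at IVP, and ranges overlapped in all 4 comparisons. Slc16a11 was 6.59 to 24.6 CPM in gonad-derived GROs and 0.426 to 6.28 CPM in in vivo GROs, at a ratio of 2.19, and was the gene without overlap at IVD@GRO, where 0.163% of expressed genes had none. No carrier was without overlap at IVD@FGO or IVG@FGO, beside 0.0102% and 0.417% of expressed genes. iPSC-derived GROs held a median of 10.1 CPM of Slc16a11. At IVD@FGO its ratio was 1.67.

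**Figure D5:**
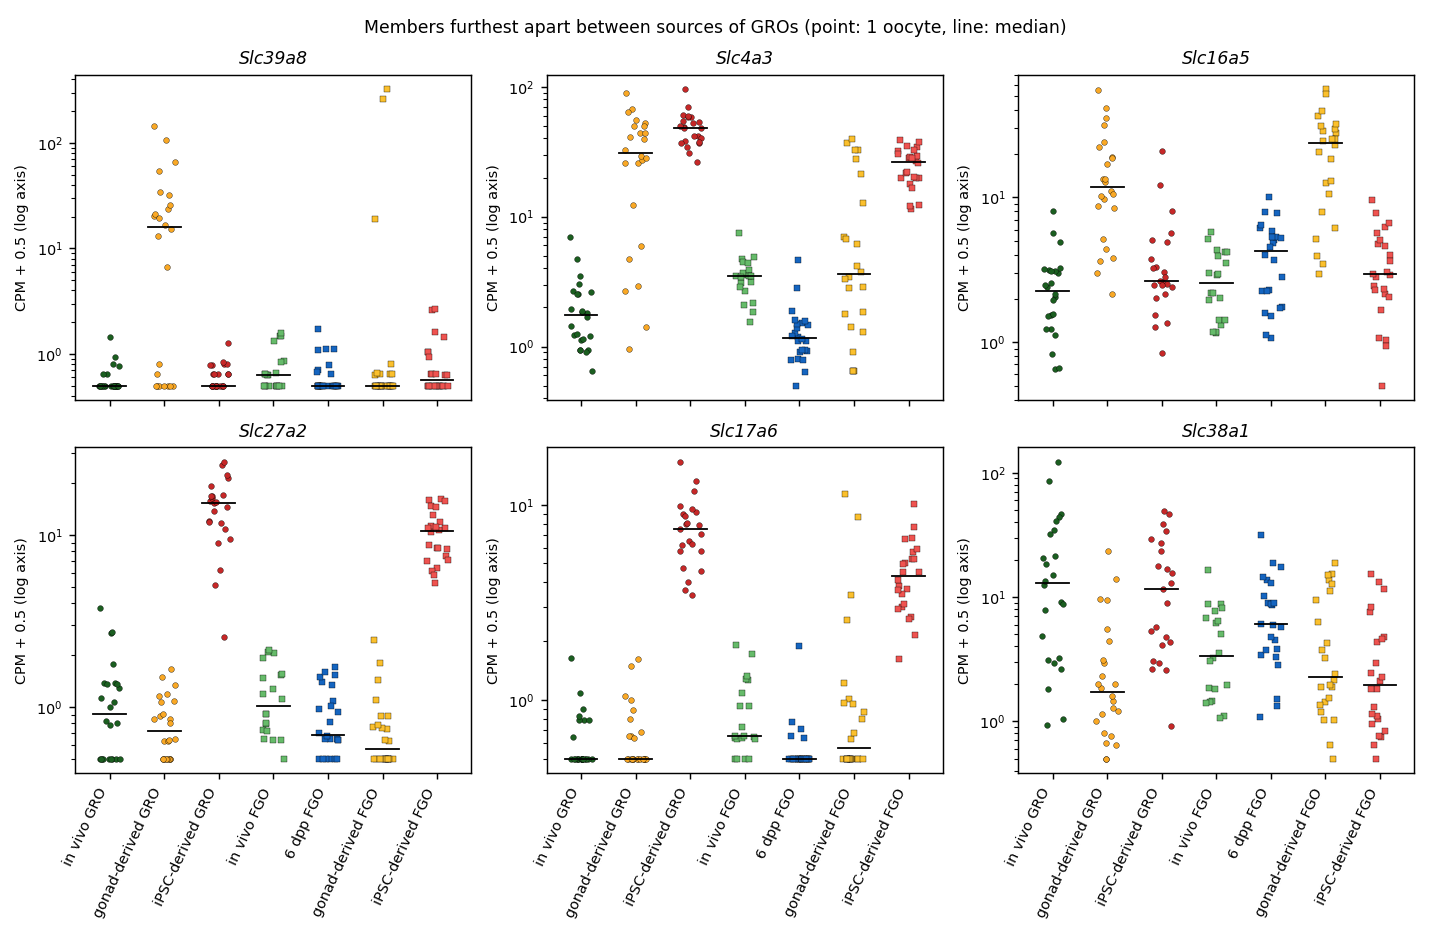
Level in every oocyte (CPM, log axis with 0.5 added) of 6 members that differed between sources, by group, with the median as a bar. Slc39a8 shows the separate sets of 15 and 9 gonad-derived GROs and of 3 and 21 gonad-derived FGOs, and Slc27a2 stands apart in the iPSC-derived groups.

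At IVD@GRO the lower genes were Slc38a1, Slc45a4, Slc12a2, Slc27a1 and Slc27a4, the last of which was at -0.93 without in vivo GRO 20. Slc38a1 varied widely between oocytes, at 0.434 to 121 CPM (median 12.4) in in vivo GROs and 0.0 to 22.8 CPM (median 1.22) in gonad-derived GROs, at a ratio of -2.46. iPSC-derived GROs held a median of 11.0 CPM, a ratio of 1.92 at IVP@GRO. At IVD@FGO the only lower gene was Slc16a12, with 1.04 against 4.2 CPM pooled and a ratio of -1.61.

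Growth in vivo and IVD@GRO share the in vivo GROs, so their ratios are given side by side only. Slc6a15 had 5.16 and 2.4, Slc9b1 4.43 and 1.78, Slc2a12 3.69 and 1.57, Slc2a9 3.67 and 1.2, Slc15a5 2.9 and 1.22 and Slc26a9 1.73 and 1.8. The study describes cultured GROs as larger than in vivo ones, and oocyte size was not analysed here.

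IVG and IVD@FGO each had 7 carriers past 2-fold. Without 6 dpp FGO 12 each had 8, and without in vivo FGO 7 IVG had 8, of which 2 were higher. In 6 dpp against in vivo FGOs, Slc27a6, of the fatty acid carrier family, was the 1 gene higher, with medians of 2.77 CPM (0.415 to 6.93) and 0.451 CPM (0.0 to 1.65) and a ratio of 1.6. The 6 lower genes were Slc39a1, Slc45a4, Slc4a3, Slc15a2, Slc2a12 and Slc16a12. The peptide carrier Slc15a2 had medians of 14.8 CPM (3.89 to 65.4) and 41.9 CPM (19.4 to 61.2), a ratio of -1.2, and 17 of 24 6 dpp FGOs were below all in vivo FGOs. Slc39a1 had medians of 1.03 and 2.81 CPM and a ratio of -1.75, which was -2.09 without 6 dpp FGO 12. In the 3 6 dpp FGOs of highest granulosa marker sum (12, 10 and 5) Slc39a1 was 2.32 to 11.7 CPM, and in the others at most 1.66 CPM. It was the only one of the 148 genes that followed those oocytes in this way, but no such count over expressed genes is given here. The part of granulosa cell RNA in the level of Slc39a1 was not tested.

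Carriers depend on partner proteins and gradients, so 27 such genes from a fixed list were read as well, of which 25 were in the table and 13 reached 5 CPM. Growth in vivo had 2 higher (Cltrn and Gja1) and 1 lower (Atp1b1), gonad-derived growth had 3 higher (Cltrn, Gja1 and Xpr1) and 0 lower, and iPSC-derived growth had the same 3 higher and 3 lower (Bsg, Spns1 and Rhbg). The shares over expressed genes are those given above for each growth comparison. Atp1b3, a beta subunit of the pump that supplies the sodium gradient, was 209 to 301 CPM in all groups. Atp1b1 was 73.4 CPM in in vivo GROs and 32.5 CPM in in vivo FGOs, a ratio of -1.16. Bsg, which brings monocarboxylate carriers to the membrane, was 254 and 160 CPM in in vivo GROs and FGOs, and Cltrn, a partner of amino acid carriers, was 0.742 and 4.73 CPM.

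Gja4, the gap junction subunit of the oocyte itself, was 1191 to 1648 CPM in all groups and within 2-fold in all 8 comparisons. Gja1, the granulosa cell subunit, was 0.42 to 1.61 CPM in GROs, 30.6 CPM in in vivo FGOs, 60.0 CPM in 6 dpp FGOs, 8.29 CPM in gonad-derived FGOs and 1.91 CPM in iPSC-derived FGOs. It is one of the granulosa markers summed above. At the culture steps Gja1 was lower at IVD@GRO, IVP@FGO and IVD@FGO, and no other of the 13 partner genes that reached 5 CPM passed 2-fold there.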

How the data were processed

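As the labels and the paper's methods state, the authors aligned single-end Smart-seq2 reads with STAR to GRCm38 (mm10) and spike-ins, placed reads with several matches at random, and deposited counts of unique exonic reads per gene. By the paper's methods the exons counted were those of 1 transcript isoform per gene, picked at random. Reads from exons outside that isoform would not be counted. Strand use is not given in the sources used here. Genes were matched by Entrez identifier to RefSeq (GRCm38.p6) for 21907 of 21950. Counts were summed over the oocytes of a group and divided by the summed total to give CPM, with exact Poisson 95% intervals (SciPy 1.17.1) that cover counting error only. All 163 oocytes were used, without selection by size. No test was made, since the labels tie no oocyte to an animal or culture. Named genes were, for each comparison and direction, the 3 largest ratios past 2-fold whose ratio of medians was also past 2-fold and that stayed so with any oocyte left out, the 3 of highest level per kb in each class, genes that split oocytes of a group, and a fixed list of known transporters. Members and lists were chosen with earlier results of these data known. The class of Slc26a2 and the class of genes named after a carrier were set after the member names were seen. Genes named beyond the rule were chosen after their values were seen. Alternatives were a pseudocount of 0.1 or 2, a 4-fold rule, a level of 1 or 10 CPM, means or medians over oocytes, TMM scaling (edgeR 4.0.16), leaving out 7 oocytes that stand apart and leaving out each oocyte. Scripts were tested on simulated data. Some items are not reported here.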

Additional observations from a re-analysis of the deposited data

How the results depend on the processing

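Of 95 alternative values for the numbers of carriers past 2-fold, 78 stayed within 1.5 times the number reported. With a 4-fold rule the numbers were 17 for growth in vivo, 8 for gonad-derived and 11 for iPSC-derived growth, 4 at IVP@GRO, 7 at IVD@GRO, 4 at IVP@FGO, 3 at IVD@FGO and 0 at IVG@FGO. The 4-fold split of higher and lower was 12 and 5 in vivo, 4 and 4 in gonad-derived and 2 and 9 in iPSC-derived growth. With a pseudocount of 2 the numbers past 2-fold were 13 at IVD@GRO, 11 at IVP@FGO and 3 at IVG@FGO, and with 0.1 it was 11 at IVG@FGO. With a level of 10 CPM they were 9 at IVP@GRO, 10 at IVP@FGO and 4 at IVD@FGO, and with 1 CPM 11 at IVD@FGO and 14 at IVG@FGO. A level of 1 CPM gave 46 higher and 31 lower for growth in vivo. From medians over oocytes the total moved by under 1.5 times in all 8, but the split of higher and lower was 3 and 3 at IVD@FGO, 6 and 7 at IVP@FGO, 12 and 3 at IVD@GRO and 2 and 7 at IVG@FGO. Without 7 oocytes that stand apart it was 2 and 6 at IVG@FGO. The cause was not tested beyond the construction of these settings. Leaving out 1 oocyte gave 52 to 57 for growth in vivo, 31 to 33 and 44 to 49 for gonad-derived and iPSC-derived growth, 13 to 15 at IVP@GRO, 19 to 23 at IVD@GRO, 15 to 18 at IVP@FGO, 6 to 8 at IVD@FGO and 7 to 8 at IVG@FGO. Of 352 values for named ratios 0 reversed and 4 came below 2-fold, all with a pseudocount of 2: Slc27a6 at 0.94 in gonad-derived growth and 0.87 at IVG@FGO, Slc27a1 at -0.86 at IVD@GRO and Slc4a3 at -0.83 at IVG@FGO. The 352 include medians over oocytes and leave-one-out values, which could not come below 2-fold because the naming rule required them to be past it. TMM scaling moved the median of all genes by over 0.1 in iPSC-derived growth only, by 0.16, and the share of higher calls there from 38.6% to 47.8%. No paired analysis was possible because the numbers in the labels only name oocytes and no result comes from a test. Differences near 3 reads per group were not detectable at this depth.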
